A study of Mus musculus with 2 samples.

Results

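*Egr2*, *Nab1* and *Nab2* encode a transcription factor and the pair of corepressors that bind it, and these 3 genes were taken by name from the 25909 genes of a count matrix of sorted mouse liver cells. The study asked what *Egr2* does in monocytes and macrophages of a liver with metabolic dysfunction-associated steatohepatitis, and these data hold 1 mouse for each of 4 groups. The genotypes were *Egr2* fl/fl, called control below, and *Lyz2* Cre/+.*Egr2* fl/fl, called Cre below, and 1 mouse of each was fed ND and 1 was fed CDA-HFD, a choline-deficient high-fat diet, for 7 weeks. Both alleles of *Egr2* carry loxP sites in all 4 mice, and Cre mice also carry the recombinase in 1 copy of *Lyz2*, so that deletion occurs where *Lyz2* is or was expressed. Which part of *Egr2* the floxed alleles lose was not given in the sources used, so an *Egr2* count in these mice can come from an allele in either state. The study's methods describe the mice fed CDA-HFD as male and 6 to 12 weeks old, read here as their age when the diet began. Their age at sampling and the age of the ND-fed mice were not given. Liver cells were sorted as CD45.2+ and CD11b+ without CD90.2, B220, NK1.1 or SiglecF, marked with 1 hashtag per mouse, pooled and captured together. The pool held 3000 cells of each ND-fed mouse and 9000 of each CDA-HFD-fed mouse.

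EGR2 is a zinc-finger transcription factor of the early growth response family, whose genes are switched on within minutes to hours of a signal at the cell surface. NAB1 and NAB2 bind an inhibitory region of EGR1, EGR2 and EGR3 and recruit chromatin remodelling proteins, so that the same factor can activate or repress a gene, and *Nab2* is itself an EGR target in several cell types. In macrophages *Egr2* is known as a gene induced by interleukin-4 and by growth factors, and in peripheral nerve the NAB proteins are needed with EGR2 for myelination.

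The ND-fed control mouse gave 1723 cells with 32029953 counts, and the ND-fed Cre mouse 1590 cells with 27840300 counts. The CDA-HFD-fed control mouse gave 5885 cells with 85227192 counts, and the CDA-HFD-fed Cre mouse 6186 cells with 90124521 counts. Per cell the medians were 16459, 15864.5, 13168 and 13476.5 counts in that order, and no cell barcode was shared between mice. Most cells held no count of any 1 of the members. *Egr2* had a count in 1737 of the 15384 cells, of which 567 cells had a single count, 129 had at least 10 and the highest had 37. *Nab1* had a count in 2941 cells, with a highest value of 16, and *Nab2* in 3390 cells, with a highest value of 19. All 3 genes were sparse, so levels are given as CPM of the summed counts of all cells of a class and mouse. Ranges in brackets are exact 95% intervals that cover counting error only, and since each group was a single mouse, differences between mice of a group are unknown and no test was made.

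On GRCm38, *Egr2* (ENSMUSG00000037868) lies on chromosome 10 from 67535475 to 67542188 on the forward strand, *Nab1* (ENSMUSG00000002881) on chromosome 1 from 52457294 to 52500679 on the reverse strand, and *Nab2* (ENSMUSG00000025402) on chromosome 10 from 127660918 to 127668568 on the reverse strand. The *Nab2* locus overlaps *Stat6*, *Gm16229* and *Nemp1* on the other strand, and whether counting kept the strands apart was not given. *Stat6* and *Nab2* did not put the classes in the same order. *Stat6* stood at 83.9 CPM in monocyte-derived macrophage-like cells and 115 CPM in Ly6C hi monocyte-like cells of the CDA-HFD-fed control mouse, and *Nab2* at 56.1 and 40.1 CPM, while *Cd209a*+ dendritic cell-like cells were low for both, at 76.0 and 22.5 CPM.

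Cells were put in classes by lists of marker genes, and names of classes carry -like since only those markers define them. A cell needed at least 4 detected markers of a class and a lead of 0.25 SD over the next class, which placed 10984 cells and left 4400 (28.6%) ungated, with 1142 cells within 0.1 SD of the lead. Some of the classes are therefore a range and not separate groups, while others stand apart in their markers. Neutrophil-like cells held a median of 908 counts per 10000 of their own markers and 22.5 of the next list. In Ly6C lo monocyte-like cells the values were 60.1 and 56.2, the second for the macrophage markers. Resident Kupffer cell-like cells held more counts of the macrophage list, with a median of 466, than of their own list, with 175. Ly6C hi monocyte-like cells had 127 and 31.5, monocyte-derived macrophage-like cells 358 and 4.51, and *Cd209a*+ dendritic cell-like cells 26.6 and 8.65. Cells were also clustered into 22 clusters without *Egr2*, *Nab1* and *Nab2*, and clusters are named where the cells of a class came from different ones.

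*Egr2*, the activator, was read first in neutrophil-like cells. It stood at 28.0 CPM (14.5 to 48.9) in the ND-fed control mouse, from 12 counts in 2 of 101 cells, 10 of them in 1 cell, and at 2.58 CPM (0.312 to 9.32), from 2 counts, in the ND-fed Cre mouse. In the CDA-HFD-fed mice it stood at 52.7 CPM (45.6 to 60.6) in the control mouse and at 4.72 CPM (2.70 to 7.67) in the Cre mouse. On CDA-HFD the control mouse was high and the Cre mouse low, while the ND level of the control mouse fell to 4.70 CPM without its highest cell. The ratio of Cre to control was 0.0922 (0.0100 to 0.414) on ND, resting on that 1 cell, and 0.0896 (0.0502 to 0.149) on CDA-HFD. CDA-HFD over ND gave 1.88 (1.05 to 3.71) in control mice and 1.83 (0.430 to 16.4) in Cre mice, and 10.7 in control mice without the highest cell of each. The ND and CDA-HFD neutrophils differed in their mixture of clusters. Cluster 9 (led by *Retnlg* and *Lrg1*) held 95% and 91.1% of them on ND and 29.7% and 36.5% on CDA-HFD. On CDA-HFD cluster 6 (led by *Csf1* and *Acod1*) held 67.0% and 56.1%. Within cluster 9 *Egr2* was 29.2 CPM on ND and 24.7 CPM on CDA-HFD in the control mice, a ratio of 0.846 (0.415 to 1.83) that was 3.56 (0.858 to 31.5) without the highest cell of each, while cluster 6 reached 81.1 CPM in the CDA-HFD-fed control mouse. Cluster 6 held 2.97% and 6.11% of the class on ND, and how much of the diet difference comes from the mixture of clusters was not tested.

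Monocyte-derived macrophage-like cells had 60.3 CPM (44.3 to 80.1) of *Egr2* in the ND-fed control mouse and 8.12 CPM (2.64 to 18.9) in the ND-fed Cre mouse. They had 53.4 CPM (50.7 to 56.3) in the CDA-HFD-fed control mouse and 9.31 CPM (8.15 to 10.6) in the CDA-HFD-fed Cre mouse. The level was high in both control mice, on either diet, and low in both Cre mice. The genotype ratio was 0.135 (0.0418 to 0.337) on ND and 0.174 (0.151 to 0.2) on CDA-HFD, the second of which was 0.0729 with a stricter gate. The diet ratio was 0.887 (0.663 to 1.21) in control mice and 1.15 (0.485 to 3.57) in Cre mice, so that a diet difference was not detectable at this depth in either genotype. Here too the mixture of clusters differed between diets. Cluster 3, led by *Tmem119*, *Olfml3* and *Itga6*, held 74.1% and 83.7% of the class on ND and 41.3% and 43.9% on CDA-HFD, where cluster 7, led by *Mmp12* and *Akr1b8*, held a further 35.8% and 33.2%. In cluster 3 alone *Egr2* fell from 99.4 CPM on ND to 37.6 CPM on CDA-HFD in the control mice, a ratio of 0.378 (0.303 to 0.477), and the averaged CPM of single cells gave 0.546 for the whole class. The macrophages of the ND-fed control mouse were 54 cells, against 1099 on CDA-HFD.

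*Cd209a*+ dendritic cell-like cells went another way. Their *Egr2* was 35.3 CPM (27.8 to 44.2) and 37.3 CPM (28.4 to 48.1) in the ND-fed control and Cre mice, and 59.8 CPM (54.9 to 64.9) and 45.7 CPM (41.4 to 50.3) in the CDA-HFD-fed ones. No Cre mouse was low in this class, but 37 of the 76 counts of the ND-fed control mouse were in 1 of 11 positive cells. The genotype ratio was 1.06 (0.739 to 1.5) on ND and 0.764 (0.671 to 0.870) on CDA-HFD, and the diet ratio was 1.69 (1.33 to 2.18) in control mice and 1.23 (0.931 to 1.64) in Cre mice. Cluster 0, which held between 76.5% and 91.4% of these cells in the 4 mice, gave 49.7 and 42.4 CPM on CDA-HFD, a ratio of 0.853 (0.762 to 0.955), and 32.1 and 48.6 CPM on ND, a ratio of 1.51 (1.11 to 2.07). Without the highest cell of each mouse the ND ratio in cluster 0 was 1.95 (1.30 to 2.98), the ND levels of the class were 18.4 and 28.2 CPM, a genotype ratio of 1.54, and the diet ratio of the control mice was 3.13. *Lyz2* was not absent from these cells as a class, but its level was far below that of monocytes (in the matched cells described further on, 1459 and 1319 CPM against 22234 and 22334 CPM in Ly6C hi monocyte-like cells).

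In Ly6C hi monocyte-like cells *Egr2* was 6.43 CPM (3.08 to 11.8) in the ND-fed control mouse and 6.96 CPM (2.56 to 15.2) in the ND-fed Cre mouse. On CDA-HFD it was 33.8 CPM (30.7 to 37.2) and 13.6 CPM (11.8 to 15.6). It was low in both ND-fed mice and highest in the CDA-HFD-fed control mouse. The diet ratio was 5.26 (2.83 to 11) in control mice and 1.95 (0.882 to 5.38) in Cre mice, and the genotype ratio 1.08 (0.323 to 3.29) on ND and 0.402 (0.339 to 0.475) on CDA-HFD. When cells with at least 90% of their hashtag counts from their own hashtag were kept, the ND genotype ratio moved to 0.164 and the diet ratio of the Cre mice to 8.35, both from few counts. Cluster 5, led by *Serpinb10*, *Vcan* and other classical monocyte genes, held 65.8%, 79.4%, 54.1% and 39.3% of the class in the 4 mice, and cluster 1 (led by *Thbs1* and *Apoc2*) a further 35.6% in the CDA-HFD-fed Cre mouse. The genotype ratio on CDA-HFD was 0.158 (0.0963 to 0.247) in cluster 5, from 19.9 and 3.15 CPM, and 0.323 in cluster 1, from 48.7 and 15.7 CPM. The diet ratio within cluster 5 was 7.82 (2.63 to 38.3) in control mice and 0.491 (0.193 to 1.48) in Cre mice, from 3 and 6 ND counts, and 2.25 (0.352 to 94.0) in Cre mice without the highest cell of each.

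Ly6C lo monocyte-like cells of the ND-fed mice had 0 counts of *Egr2* in the control mouse, which allows up to 3.03 CPM, and 1 count, or 1.60 CPM, in the Cre mouse. On CDA-HFD the control mouse had 20.3 CPM (15.8 to 25.7) and the Cre mouse 8.26 CPM (5.96 to 11.2). *Egr2* was thus at or near 0 on ND and readable on CDA-HFD. Against the limit of 3.03 CPM it was 6.69-fold higher on CDA-HFD in control mice, leaving out the counting error of the CDA-HFD-fed mouse. Within cluster 8, which held 90.5% of the ND and 66.3% of the CDA-HFD cells, the ratio against the limit there was 3.12. The Cre mice gave a diet ratio of 5.16 (0.876 to 209), and the genotype ratio on CDA-HFD was 0.407 (0.270 to 0.606). Resident Kupffer cell-like cells, of which the CDA-HFD-fed mice had 5 and 17, had 4.60 CPM (3.68 to 5.68) in the ND-fed control mouse and 0.908 CPM (0.519 to 1.47) in the ND-fed Cre mouse, a ratio of 0.197 (0.108 to 0.339). They were low in *Egr2* beside the macrophages of the same mouse, and lower still in the Cre mouse.

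Within each mouse the classes could be put in order by *Egr2* level. In the CDA-HFD-fed control mouse dendritic cells, macrophages and neutrophils came first, with overlapping intervals, and Ly6C hi and then Ly6C lo monocyte-like cells followed, each apart from its neighbours. In the ND-fed control mouse macrophages stood above dendritic cells, neutrophils overlapped both but rest on 1 cell, and Ly6C hi monocytes and Kupffer cells overlapped below them. In both Cre mice dendritic cells stood above every other one of these 6 classes. In the CDA-HFD-fed Cre mouse Ly6C hi monocytes came next at 13.6 CPM, and the intervals of macrophages and Ly6C lo monocytes overlapped below that, as did those of Ly6C lo monocytes and neutrophils.

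The smaller classes were left out of this order. *Xcr1*+ dendritic cell-like cells had 28.6, 8.26, 13.2 and 41.2 CPM of *Egr2* in the ND-fed control, ND-fed Cre, CDA-HFD-fed control and CDA-HFD-fed Cre mice, from 44, 21, 25 and 57 cells. The last value (31.9 to 52.3), from 67 counts, overlapped that of *Cd209a*+ dendritic cells and lay above the other main classes of the mouse. *Ccr7*+ dendritic cell-like cells had 11.1 and 9.58 CPM on CDA-HFD, a genotype ratio of 0.866 (0.423 to 1.72), so that no genotype difference was detectable in the class at this depth. Cluster 10 held 91.7% and 94.6% of these cells and gave a ratio of 0.469 (0.193 to 1.03). Without the highest cell of each mouse the ratio in cluster 10 was 0.205 (0.0389 to 0.690). T or NK cell-like cells held between 1 and 6 counts per mouse, and the 13 counts in B cell-like cells of the CDA-HFD-fed Cre mouse came from 1 cell. The ungated cells, which lay between the classes, had 30.3, 16.6, 57.9 and 22.7 CPM in the same order of mice, with genotype ratios of 0.547 (0.397 to 0.744) on ND and 0.393 (0.357 to 0.432) on CDA-HFD. Of the 60 ND Cre counts 31 were in 1 cell, and without the highest cell of each mouse the ND ratio was 0.304 (0.195 to 0.458).

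**Figure D1:**
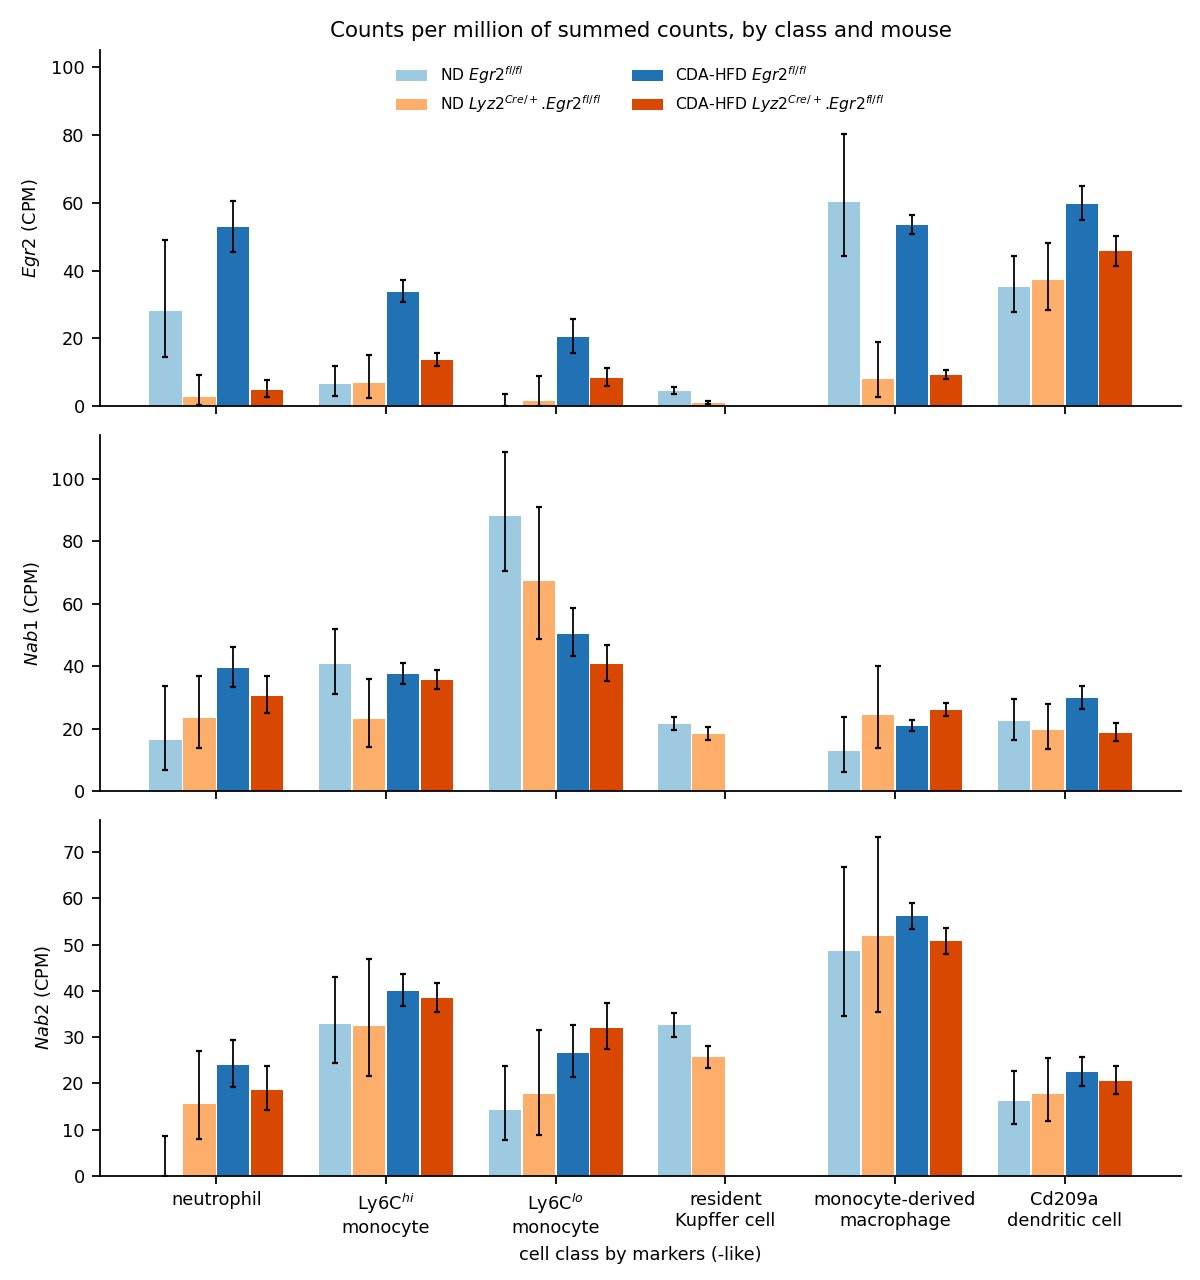
CPM of *Egr2*, *Nab1* and *Nab2* (vertical axes) by marker class (horizontal axis) and mouse (colours), as bars with exact 95% Poisson error bars, for the 6 main classes where the mouse had at least 30 cells. *Egr2* is low in Cre neutrophils and macrophages and not in Cre dendritic cells, *Nab1* is highest in Ly6C lo monocytes and *Nab2* in macrophages among the classes shown.

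The share of cells with an *Egr2* count was read beside its level, since free RNA can give a count in a cell that does not express a gene. Neutrophil-like cells of the Cre mice, with median totals of 3990.5 and 4069 counts, had a count in 0.556% and 1.18% of cells, and endothelial cell-like cells of the same mice in 2.5% of 40 cells each, at medians of 12109 and 9910 counts. In the control neutrophils the share was 1.98% on ND and 10.2% on CDA-HFD at medians of 3791 and 4098 counts. The neutrophils of the CDA-HFD-fed control mouse were thus well above those shares, while the ND share rests on 2 cells. Macrophages had a count in 22.2%, 6.12%, 29.7% and 5.87% of cells at medians of 11330, 10167, 22216 and 20025 counts, and dendritic cells in 9.24%, 13%, 24.4% and 17.1% at medians of 16832, 16225, 15932 and 15709.5. Ly6C hi monocytes had 3.42%, 2.94%, 14.9% and 6.43%, and the Kupffer cells 5.01% and 1.72% at medians of 26013.5 and 24031. With each cell thinned to 3000 counts the macrophage shares were 11.9%, 2.38%, 11.1% and 2.06%, the dendritic cell shares 4.51%, 6.42%, 11.2% and 8.23%, and the Kupffer cell shares 1.23% and 0.432%, beside 0.274% and 0.834% in the endothelial cells and 0.551% and 0.859% in the neutrophils of the Cre mice. By point values the Kupffer cells lay closest of these 3 classes to the background at this depth. Cre macrophages lay above it, and the dendritic cells of all 4 mice lay higher still. The endothelial values rest on 1 positive cell in each mouse, and the ND-fed Cre neutrophil value on 1 of 180 cells. Among the ND-fed Cre macrophages 3 of 49 cells were positive. Before thinning their interval of 1.28% to 16.9% overlapped the 0.0633% to 13.2% of the endothelial cells, so their order is not settled. Among positive cells, the macrophages of the CDA-HFD-fed mice held a mean of 4.35 counts in the control mouse and 3.50 in the Cre mouse, so that the genotypes differed more in how many cells had a count than in the count of a positive cell.

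Set against all other genes of the genotype comparison, *Egr2* was among the lowest in several classes. This used the log2 ratio of CPM with 1 CPM added to both, for genes with at least 100 counts over both mice. On CDA-HFD, *Egr2* had the lowest ratio of 5391 genes in neutrophil-like cells, with a log2 of -3.23, where 4.99% of genes were at least 1.5-fold lower in the Cre mouse. It was 2nd lowest of 11406 genes in macrophages (log2 -2.40, with 1.55% of genes that much lower), after *Vsig8*, a gene singled out after its values were seen, at 2.94 against 28.2 CPM. In Ly6C hi monocytes it was 7th lowest of 9758 genes (log2 -1.26, with 1.58% of genes that much lower) and in Ly6C lo monocytes 10th lowest of 6833 (log2 -1.20, with 3.37%). The genes below it in the monocyte classes included the heat shock genes *Hspa1a* and *Hspa1b* in both, also named after their values were seen. On ND it was 7th lowest of 10880 genes in Kupffer cells (log2 -1.55, with 1.57%). Dendritic cells stood apart, with rank 694 of 9055 on CDA-HFD (log2 -0.38, with 2.54% of genes past the fold) and rank 2453 of 4264 on ND (log2 0.08, with 5.63%), and there *Egr2* was not past 1.5-fold.

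*Lyz2*, whose Cre-bearing copy drives the deletion, was lower in the Cre mice in most classes. Its genotype ratio in dendritic cells was 0.411 on ND and 0.410 on CDA-HFD, in macrophages 0.562 and 0.527, in Ly6C hi monocytes 0.545 and 0.505, in Ly6C lo monocytes 0.553 and 0.5, and in Kupffer cells on ND 0.457. Neutrophils gave 0.399 on ND and 0.956 on CDA-HFD, but 0.686 in cluster 6, 0.621 in cluster 9 and 0.496 in cluster 17 on CDA-HFD. In dendritic cells *Lyz2* was thus at least as low in the Cre mice as in macrophages, while the *Egr2* ratio was far closer to 1. Since Cre itself lies in a copy of *Lyz2* in these mice, the *Lyz2* ratio does not measure how far *Egr2* was deleted. *Lyz2* is 1 of 34 genes whose lowest value above 0 was at least 5, so its low values are missing from these sums.

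Clusters showed more of the spread within classes on CDA-HFD. The highest *Egr2* level of a control cluster with at least 30 cells in both CDA-HFD-fed mice was in neutrophil-like cluster 6, at 81.1 CPM against 6.09 CPM in the Cre mouse, a ratio of 0.0751 (0.0382 to 0.134). Cluster 2, which no marker list named and which *Gpr84*, *Clec4e*, *F10* and *Il1rn* led, had 72.7 and 25.1 CPM, a ratio of 0.346 (0.304 to 0.391), and cluster 7, led by *Mmp12* and also holding *Gpnmb* and *Spp1* among its leading genes, had 67.8 and 16.5 CPM, a ratio of 0.243 (0.208 to 0.283). Macrophage-like cluster 3 was lower, at 37.6 and 4.49 CPM, a ratio of 0.12 (0.0907 to 0.155). On CDA-HFD *Egr2* was thus higher in clusters 2 and 7, neither of which has a class name, than in cluster 3, which had 99.4 CPM in the ND-fed control mouse. A cluster of proliferating cells, cluster 12, had 59.3 and 17.9 CPM on CDA-HFD and 3.04 CPM in the ND-fed control mouse. Cluster 11, led by the interferon-induced genes *Cxcl9* and *Cxcl10*, had 55.4 and 45.4 CPM on CDA-HFD and 28.1 CPM in the ND-fed control mouse. Without the highest cell of each mouse its CDA-HFD levels were 43.4 and 22.3 CPM. The genotype ratio of cluster 11 was then 0.513 (0.287 to 0.891) in place of 0.819 (0.536 to 1.25). The same step gave 0.0463 (0.0184 to 0.0971) in cluster 6 and 0.0820 (0.0580 to 0.113) in cluster 3. In Ly6C lo monocyte-like cluster 8 the levels were 10.8 and 5.49 CPM, and in *Ccr7*+ dendritic cell-like cluster 10 they were 10.6 and 4.98 CPM.

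**Figure D2:**
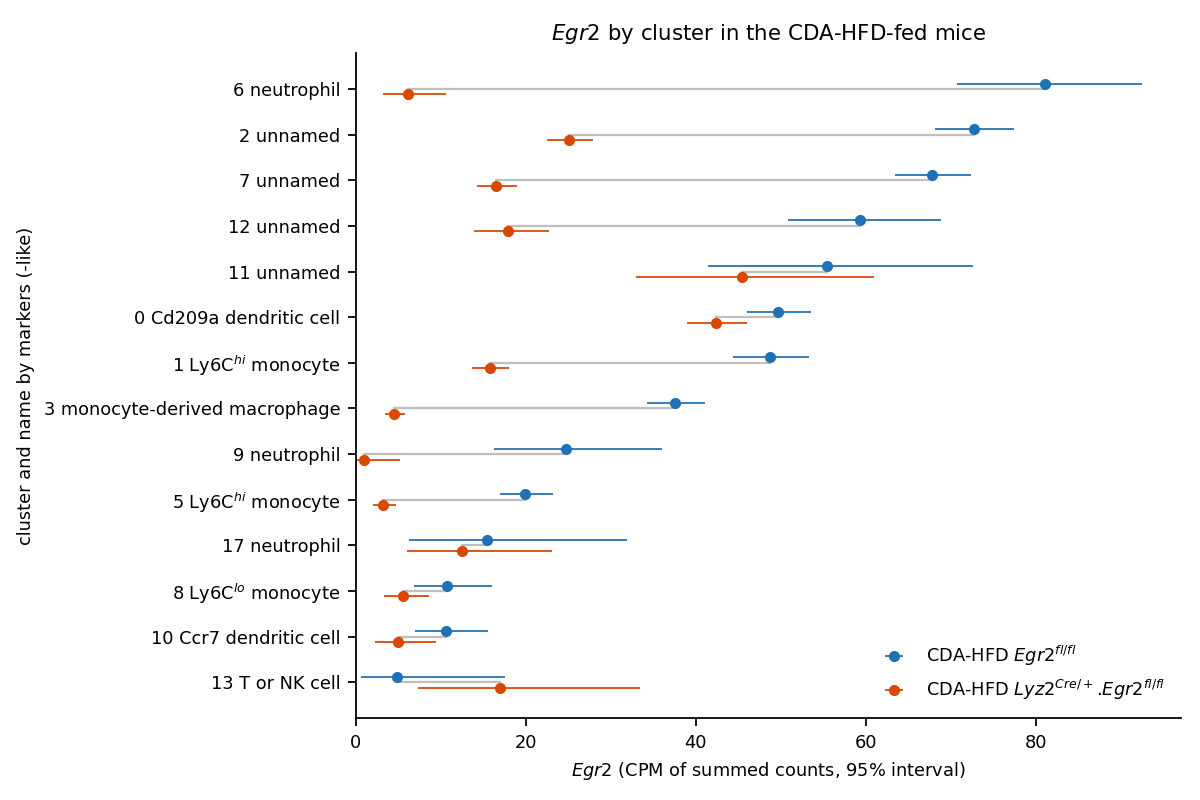
CPM of *Egr2* (axis) in each cluster with at least 30 cells in both CDA-HFD-fed mice, with exact 95% intervals, by genotype (colour) and sorted by the control value. The Cre value is far lower in neutrophil-like cluster 6 and macrophage-like cluster 3 and close to the control value in dendritic cell-like cluster 0.

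*Nab1* encodes the first corepressor and, among the 6 main classes (neutrophil, Ly6C hi and Ly6C lo monocyte, Kupffer cell, macrophage and *Cd209a*+ dendritic cell), was highest in Ly6C lo monocyte-like cells. It stood there at 88.0 CPM (70.5 to 109) and 67.3 CPM (48.5 to 91.0) in the ND-fed control and Cre mice and at 50.3 CPM (43.1 to 58.5) and 40.7 CPM (35.4 to 46.7) in the CDA-HFD-fed ones. Both ND-fed mice were above both CDA-HFD-fed mice. On CDA-HFD the interval overlapped that of neutrophils, at 33.2 to 46.2 CPM in the control and 24.8 to 36.9 CPM in the Cre mouse. In the Cre mouse it also overlapped that of Ly6C hi monocytes, at 32.8 to 38.8 CPM. There neutrophil-like cluster 6 had 52.3 CPM, above the 47.4 CPM of Ly6C lo monocyte-like cluster 8. The diet ratio was 0.572 (0.439 to 0.749) in control mice and 0.605 (0.433 to 0.865) in Cre mice, and the genotype ratio 0.765 (0.516 to 1.12) on ND and 0.809 (0.657 to 0.997) on CDA-HFD. With at least 90% own hashtag the Cre diet ratio was 0.947 and the ND genotype ratio 0.507. Cluster 8 held 90.5% and 90.1% of the class on ND and 66.3% and 63.5% on CDA-HFD. Within cluster 8 *Nab1* was 71.2 and 72.7 CPM on ND and 57.8 and 47.4 CPM on CDA-HFD, with a diet ratio of 0.812 (0.595 to 1.12) in control and 0.652 (0.457 to 0.949) in Cre mice. The Cre ratio there was 0.728 (0.497 to 1.09) without the highest cell of each mouse. The share of Ly6C lo monocytes with a *Nab1* count was 31.0%, 25.9%, 25.1% and 22.1%, and 17.4%, 15.5%, 13.1% and 10.3% with cells thinned to 3000 counts.

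In the other 5 of the 6 main classes *Nab1* lay between 12.8 and 40.5 CPM. Ly6C hi monocytes had 40.5, 23.2, 37.6 and 35.7 CPM in the ND-fed control, ND-fed Cre, CDA-HFD-fed control and CDA-HFD-fed Cre mice, and neutrophils had 16.3, 23.2, 39.3 and 30.4 CPM. The genotype ratio in the monocytes was 0.573 (0.328 to 0.960) on ND and 0.95 (0.839 to 1.08) on CDA-HFD, but 0.820 (0.5 to 1.33) on ND within cluster 5, and on CDA-HFD 1.17 (0.994 to 1.37) in cluster 5 and 1.37 (1.14 to 1.65) in cluster 1. In neutrophils the diet ratio of the control mice was 2.41 (1.14 to 6.09), but 1.19 (0.457 to 3.64) within cluster 9, and the genotype ratio on CDA-HFD was 0.774 (0.596 to 1.00), but 1.06 (0.810 to 1.38) within cluster 6. Macrophages had 12.8, 24.4, 20.8 and 26.0 CPM, with genotype ratios of 1.90 (0.798 to 4.73) on ND and 1.25 (1.11 to 1.40) on CDA-HFD, the second of which was 1.06 as a mean over cells. Dendritic cells had 22.3, 19.6, 29.8 and 18.7 CPM, with genotype ratios of 0.879 (0.541 to 1.41) and 0.629 (0.516 to 0.764). Kupffer cells had 21.6 and 18.3 CPM on ND, a ratio of 0.850 (0.732 to 0.987). On CDA-HFD *Nab1* was thus higher in Cre macrophages and lower in Cre dendritic cells. Over all cells the levels were 25.1, 21.0, 28.5 and 29.0 CPM, and the genotype ratio was 0.835 (0.749 to 0.930) on ND and 1.02 (0.962 to 1.08) on CDA-HFD.

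*Nab2*, the second corepressor, was highest in monocyte-derived macrophage-like cells among the same 6 classes. T or NK cell-like cells of the ND-fed Cre mouse, at 58.2 CPM from 34 cells, overlapped them. In macrophages it stood at 48.7 CPM (34.5 to 66.9) and 52.0 CPM (35.5 to 73.3) in the ND-fed control and Cre mice and at 56.1 CPM (53.3 to 59.0) and 50.8 CPM (48.0 to 53.7) in the CDA-HFD-fed ones. The intervals of the 2 ND-fed mice overlapped, unlike for *Egr2* in the same cells. The genotype ratio was 1.07 (0.645 to 1.75) on ND, which was 1.76 as a mean over cells, and 0.905 (0.839 to 0.976) on CDA-HFD. The diet ratio was 1.15 (0.835 to 1.63) in control mice and 0.977 (0.689 to 1.43) in Cre mice. Within cluster 3 the diet ratios were 1.40 (1.01 to 2.00) and 0.996 (0.748 to 1.35). The control one was 1.65 (1.15 to 2.44) without the highest cell of each mouse. On CDA-HFD the ratio was 0.786 (0.706 to 0.876) in cluster 3, from 56.4 and 44.4 CPM, and 0.966 in cluster 7, from 53.5 and 51.7 CPM, while unnamed cluster 2 had the highest *Nab2* of the clusters in both CDA-HFD-fed mice, at 65.2 and 59.9 CPM. *Nab2* had a count in 29.6%, 30.6%, 46.0% and 38.5% of macrophages, and in 10.4%, 14.4%, 14.0% and 11.9% with cells thinned to 3000 counts.

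Ly6C hi monocytes had 32.8, 32.5, 40.1 and 38.4 CPM of *Nab2*, with genotype ratios of 0.991 (0.602 to 1.60) and 0.959 (0.851 to 1.08), so that no genotype difference was detectable in the class as gated. The ND ratio was 1.71 with at least 90% own hashtag, and the CDA-HFD ratio 0.781 with the stricter gate. Clusters of this class on CDA-HFD did differ, with ratios of 0.712 (0.622 to 0.815) in cluster 1, from 46.7 and 33.3 CPM, and 0.704 (0.560 to 0.881) in cluster 5, from 25.6 and 18.0 CPM. Cluster 1 had the higher *Nab2* and held more of the class in the Cre mouse. Ly6C lo monocytes had 14.2, 17.6, 26.5 and 32.1 CPM, higher on CDA-HFD by 1.87 (1.06 to 3.56) in control mice and 1.82 (0.991 to 3.72) in Cre mice. Within cluster 8 these ratios were 1.33 (0.688 to 2.79) and 1.57 (0.724 to 4.05), with intervals that held 1. Without the highest cell of each mouse they were 1.41 (0.684 to 3.18) in control mice and 4.93 (1.31 to 41.6) in Cre mice. The last value came from 64 and 2 counts, so that only the control ratio stayed without a detectable difference. Kupffer cells had 32.6 and 25.6 CPM on ND, a genotype ratio of 0.786 (0.694 to 0.889). Neutrophils of the ND-fed control mouse had 0 counts, which allows up to 7 CPM, and the other mice 15.5, 23.9 and 18.6 CPM, so that *Nab2* was at least 2.21-fold higher in the ND-fed Cre mouse and at least 3.42-fold higher in the CDA-HFD-fed control mouse. Within cluster 9 *Nab2* stood at 0 CPM in the ND-fed control mouse and 5.49 CPM in the CDA-HFD-fed one, where the bound of 0.752 left no diet difference detectable. Dendritic cells had 16.2, 17.7, 22.5 and 20.5 CPM, with a genotype ratio of 0.913 (0.744 to 1.12) on CDA-HFD. Over all cells *Nab2* was 30.5, 26.5, 42.9 and 37.7 CPM, higher on CDA-HFD by 1.40 (1.31 to 1.51) in control mice and 1.42 (1.31 to 1.54) in Cre mice.

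The partners of the NAB proteins varied less. *Chd4*, which encodes a nucleosome-remodelling helicase that NAB2 recruits, stood at 118, 119, 150 and 151 CPM over all cells, and *Ddx20*, which encodes a helicase that binds EGR2, at 7.46, 6.72, 6.32 and 6.57 CPM. Neither split the genotypes over all cells.

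The other EGR genes were read because the NAB proteins bind them too. *Egr4* was not among the genes of the matrix, and *Wt1* had between 0 and 11 counts per mouse. *Egr1* in neutrophils was 201, 257, 698 and 537 CPM in the ND-fed control, ND-fed Cre, CDA-HFD-fed control and CDA-HFD-fed Cre mice, and *Egr3* was 21.0, 9.03, 106 and 49.9 CPM. Both were high on CDA-HFD, and lower there in the Cre mouse, by 0.769 (0.724 to 0.817) for *Egr1* and 0.470 (0.390 to 0.564) for *Egr3*. By cluster the *Egr1* ratio on CDA-HFD was 0.867 (0.813 to 0.924) in cluster 6, 0.999 (0.875 to 1.14) in cluster 9 and 1.77 (1.42 to 2.22) in cluster 17. That of *Egr3* was 0.757 (0.640 to 0.894), 0.202 (0.0868 to 0.418) and 1.09 (0.519 to 2.40). Both genes were thus lower in the Cre mouse in cluster 6. No difference was detectable for *Egr1* in cluster 9 or for *Egr3* in cluster 17. In dendritic cells *Egr1* was 149, 298, 367 and 352 CPM and *Egr3* 7.89, 38.5, 53.3 and 52.5 CPM. On ND the Cre dendritic cells were thus higher, by 2.01 (1.74 to 2.32) and 4.88 (2.81 to 8.92), and within cluster 0 by 1.82 (1.58 to 2.11) and 1.88 (1.32 to 2.70), while on CDA-HFD the ratios were 0.960 and 0.984. In macrophages *Egr1* was 129, 278, 91.5 and 95 CPM, with a genotype ratio of 2.14 (1.67 to 2.77) on ND and 1.04 on CDA-HFD, and *Egr3* was 26.9, 47.1, 3.13 and 4.64 CPM. Within cluster 3 the ND ratios were 0.921 (0.754 to 1.13) for *Egr1* and 0.614 (0.366 to 1.02) for *Egr3*, so that the higher ND level of the class was not seen there. On CDA-HFD the *Egr1* ratio was 0.989 (0.927 to 1.06) in cluster 3 and 1.39 (1.24 to 1.55) in cluster 7, so that *Egr1* did not fall with *Egr2* in the Cre mouse there. In monocyte-like cells on CDA-HFD it was lower in the Cre mouse, by 0.503 (0.428 to 0.589) in cluster 5 and 0.657 (0.541 to 0.799) in cluster 8. Cluster 1 gave 0.907 (0.822 to 1.00). In Kupffer cell-like cluster 4 on ND the ratio was 0.674 (0.611 to 0.743) for *Egr1* and 0.413 (0.261 to 0.639) for *Egr3*.

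Across the 12 points of class and control mouse with at least 50 cells, the 5 genes most like *Egr2* among 7697 were *Odc1* (Pearson r 0.887 of log2 CPM with 1 added), *Tmem251* (0.838), *Mif* (0.830), *Ndufaf2* (0.813) and *Egr1* (0.787). *Egr3* had 0.746, *Nab2* 0.0865 and *Nab1* -0.592, so that neither corepressor followed *Egr2* across classes. Over 24 points of all 4 mice and 7735 genes, *Nab1* was most like *Ace* (0.867), *Ceacam1* (0.861), *Ceacam2* (0.824), *Rbpms* (0.821) and *Tiam2* (0.819). *Ace* is a marker that defined the Ly6C lo class. *Nab2* was most like *Alkbh3* and *Med6* (both 0.896), *Dnase2a* (0.880), *Psmd12* (0.878) and *Ttc33* (0.876), and had 0.0707 with *Nab1*. The points share mice, classes and depth, so these values describe a likeness only. Rank correlations of the genes above were lower in most cases, in the same order 0.811, 0.741, 0.587, 0.741 and 0.727 with *Egr2*, 0.890, 0.779, 0.782, 0.669 and 0.808 with *Nab1*, and 0.677, 0.704, 0.803, 0.560 and 0.518 with *Nab2*, which had 0 counts in 1 shallow point.

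Cells with an *Egr2* count were then compared with cells without one, in the CDA-HFD-fed control mouse and within a class, each positive cell matched 1 to 1 to a zero cell on total counts. The classes with at least 100 positive cells were Ly6C hi monocytes with 144 pairs, macrophages with 326 and dendritic cells with 135, while neutrophils had 84 positive cells. The matched sets had median totals of 14271.5 and 14269.5, 25589.5 and 25634, and 17424 and 17447 counts, and median mitochondrial shares of 2.11% and 2.23%, 2.08% and 2.10%, and 1.87% and 1.98%. They did not have the same mixture of clusters. Of the Ly6C hi monocytes, 42.4% of positive and 16.7% of zero cells were in cluster 2, and of the macrophages 45.7% and 33.7% were in cluster 7, whereas 89.6% and 91.9% of the dendritic cells were in cluster 0. Matching was therefore repeated within clusters, a choice made after seeing the data, and those values are given beside the ratios of the main genes named below. A cell with 0 counts may still express *Egr2*, and a count may come from free RNA.

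Among 4639 genes in Ly6C hi monocytes, 271 (5.84%) were at least 1.5-fold higher and 293 (6.32%) at least 1.5-fold lower in positive cells. Macrophages had 213 higher (2.39%) and 360 lower (4.04%) of 8918 genes, and dendritic cells 278 higher (5.63%) and 246 lower (4.99%) of 4934. At a minimum of 500 counts in place of 100 the numbers were 42 and 12, 63 and 26, and 44 and 6, so that most of these genes were of few counts. Of 5332 genes measured in at least 2 classes, 66 higher and 32 lower genes were past the fold in at least 2. These also had the same direction in every class where they were measured. Past the fold in all 3 classes were 16 higher genes and 1 lower gene, *Mtus1*, of 4127. Matched within clusters, 115 of the 271 higher genes of monocytes (42.4%), 135 of the 213 of macrophages (63.4%) and 205 of the 278 of dendritic cells (73.7%) were again past the fold. Of the lower genes these were 118 of 293 (40.3%), 164 of 360 (45.6%) and 188 of 246 (76.4%). In the CDA-HFD-fed Cre mouse, with 73, 66 and 91 pairs, 7.76% and 5.73% of genes were higher and lower in Ly6C hi monocytes, 7.22% and 8.63% in macrophages, and 6.79% and 7.72% in dendritic cells. No class of the ND-fed mice had the 50 positive cells required.

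Of the other EGR genes *Egr1* could be measured in all 3 classes and *Egr3* in dendritic cells alone. *Egr1* stood at 93.6 CPM in positive and 57.5 CPM in zero Ly6C hi monocytes, 147 and 69.3 CPM in macrophages, and 713 and 215 CPM in dendritic cells. It was higher in positive cells of each class, by 1.63 (1.30 to 2.05), 2.12 (1.93 to 2.34) and 3.32 (3.01 to 3.66), and within clusters by 1.76, 2.61 and 3.36. *Egr3* in dendritic cells was 106 and 27.9 CPM, a ratio of 3.78 (2.89 to 5), and it was under 100 counts in the other classes. In the CDA-HFD-fed Cre mouse neither could be measured in monocytes, and the *Egr1* ratio was 2.07 in macrophages and 4.47 in dendritic cells, and that of *Egr3* was 4.31 in dendritic cells.

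The corepressors did not rise with *Egr2* in a common way. *Nab1* was 46.1 CPM in positive and 30.1 CPM in zero Ly6C hi monocytes, 20.7 and 21.7 CPM in macrophages, and 26.2 and 24.7 CPM in dendritic cells. The ratios were 1.53 (1.11 to 2.12), 0.953 (0.774 to 1.17) and 1.06 (0.736 to 1.53), with overlapping intervals, and within clusters the monocyte ratio was 1.23 (0.911 to 1.68), so that no difference was detectable there. *Nab2* was 43.4 and 49.6 CPM, 46.3 and 62.8 CPM, and 27.8 and 23.9 CPM in the same order. It was lower in *Egr2*-positive macrophages, by 0.737 (0.647 to 0.840), and by 0.749 (0.657 to 0.853) within clusters, and the ratios were 0.874 (0.655 to 1.16) in monocytes and 1.16 (0.810 to 1.68) in dendritic cells. The Cre mouse gave *Nab2* ratios of 2.23 (1.44 to 3.52) in monocytes and 1.13 (0.847 to 1.5) in macrophages, so that the lower macrophage value was not seen in the other mouse. Of the list of *Nab1*, *Nab2*, *Chd4* and *Ddx20*, 1 of 3 measured genes was past 1.5-fold in monocytes and none of 4 in macrophages or of 3 in dendritic cells, with median log2 ratios of -0.19, -0.01 and 0.08 beside -0.02, -0.04 and -0.03 over all genes. *Chd4* had ratios of 0.799, 1.03 and 1.04. For this list the Cre mouse had 1 of 2, 0 of 3 and 0 of 1 measured genes past the fold. The medians there were 0.76, 0.37 and 0.09. Over all genes 5.84%, 2.39% and 5.63% were higher in the control mouse and 7.76%, 7.22% and 6.79% in the Cre mouse.

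Immediate early genes, which respond to the same signals as *Egr2*, were next. Of 20 measured genes in Ly6C hi monocytes 1 was past the fold, of 22 in macrophages 5 and of 20 in dendritic cells 14, all higher, with median log2 ratios of 0.24, 0.44 and 0.69. Over all genes 5.84%, 2.39% and 5.63% were higher, with medians of -0.02, -0.04 and -0.03. The monocyte count was thus near the share over all genes. The higher genes were most in dendritic cells and fewest in monocytes. In the Cre mouse the counts were 5 of 17, 6 of 18 and 12 of 20 and the medians 0.36, 0.52 and 0.80. Higher over all genes of that mouse were 7.76%, 7.22% and 6.79%. *Fosb*, which encodes an AP-1 subunit, was at 546 and 265 CPM in positive and zero dendritic cells, a ratio of 2.06 (1.87 to 2.26), and was 1.56 (1.34 to 1.83) in monocytes, with 2.23 and 1.61 within clusters. *Nr4a2*, which encodes an orphan nuclear receptor, was at 53.6 and 23.2 CPM in macrophages, a ratio of 2.31 (1.96 to 2.74), and 1.95 (1.63 to 2.32) in dendritic cells, with 2.31 and 2.28 within clusters. *Maff* had 2.11 (1.77 to 2.51) and 2.08 (1.67 to 2.62) in these classes, with 2.22 and 2.28 within clusters. *Klf2* was 0.728 (0.610 to 0.868) in monocytes and 1.97 (1.60 to 2.44) in dendritic cells, but 0.958 (0.793 to 1.16) and 1.75 within clusters. *Jun* was 0.931 (0.870 to 0.996) in monocytes and 1.61 (1.51 to 1.72) in dendritic cells, but 1.12 (1.05 to 1.21) and 1.67 within clusters, so that the monocyte value crossed 1.

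**Figure D3:**
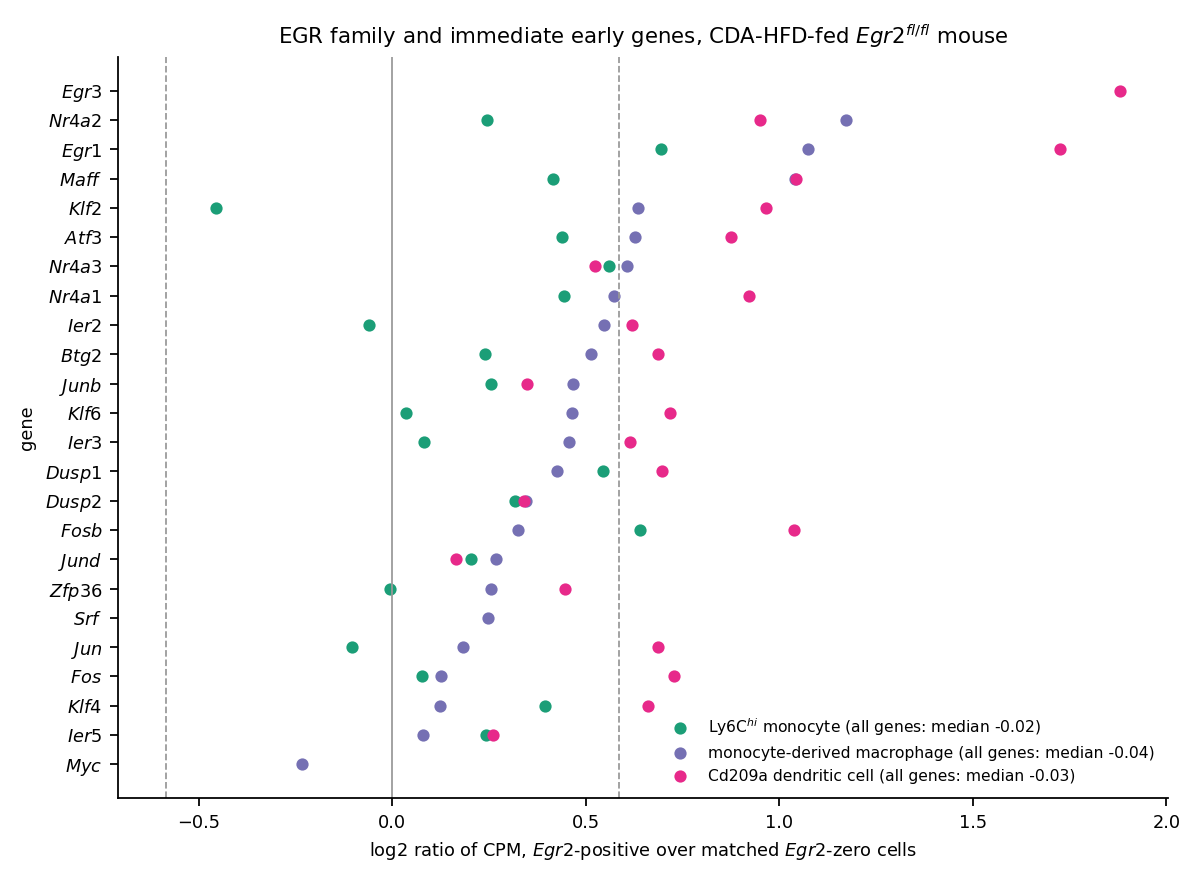
Log2 ratio of CPM in *Egr2*-positive over matched *Egr2*-zero cells of the CDA-HFD-fed control mouse for EGR family and immediate early genes with at least 100 counts over both sets, in 3 classes (colours), with dashed lines at 1.5-fold either way. Dendritic cells have the most genes above the upper line, and no gene lies below the lower line.

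Few genes that MAP kinase signals induce as feedback could be measured. None of 3 measured genes was higher and 1 lower in Ly6C hi monocytes, 3 of 6 were higher in macrophages, and the 1 gene measured in dendritic cells was not past the fold, with median log2 ratios of -0.10, 0.27 and 0.13. Over all genes 5.84%, 2.39% and 5.63% were higher in these classes, and 6.32% lower in the monocytes. *Dusp6*, which encodes a phosphatase of ERK, was lower in positive monocytes, at 70.6 and 116 CPM, a ratio of 0.606 (0.493 to 0.744), and 0.631 within clusters. *Dusp5*, *Spred1* and *Spred2* were higher in positive macrophages, by 1.53, 1.58 and 2.16, and by 1.23, 1.61 and 2.55 within clusters. In the Cre mouse 0 of 1, 0 of 2 and 1 of 1 measured genes were higher in monocytes, macrophages and dendritic cells, with medians of -0.52, 0.22 and 1.29. Of all genes there 7.76%, 7.22% and 6.79% were higher. *Etv4* was not in the matrix.

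By the fixed rule, the 10 genes with the highest median ratio over the classes were *Ccl2* (3.73), *Cxcl10* (3.17), *Ccl4* (2.60), *Ptgs2* (2.41), *Plk2* (2.31), *Thap6* (2.25), *Sdc4* (2.23), *Cxcl2* (2.21), *Nlrp3* (2.15) and *Il1b* (2.14). The list holds 4 chemokine genes, the gene of interleukin-1β and that of the inflammasome sensor NLRP3. *Ccl2*, which encodes the ligand of CCR2, was at 233 CPM in *Egr2*-positive and 49.6 CPM in zero Ly6C hi monocytes, at 29.0 and 7.05 CPM in macrophages, and at 163 and 43.3 CPM in dendritic cells. Its ratios were 4.70 (3.81 to 5.85), 4.11 (3.11 to 5.52) and 3.76 (3.03 to 4.70), and within clusters 7.69, 1.80 and 2.75, so that the direction was the same and the size was not. *Ccl4* was at 1024 and 394 CPM, 418 and 230 CPM, and 1553 and 543 CPM, with ratios of 2.60, 1.82 and 2.86, and 3.26, 1.80 and 2.86 within clusters. *Il1b* was at 3298 and 1465 CPM, 1194 and 891 CPM, and 3749 and 1752 CPM, with ratios of 2.25 (2.16 to 2.35), 1.34 (1.30 to 1.38) and 2.14 (2.06 to 2.22), and 1.87, 1.36 and 2.29 within clusters. *Ptgs2* varied little, between 2.41 and 2.62, while *Cxcl10* and *Cxcl2* went from 1.66 and 1.82 in monocytes to 5.94 and 6.15 in dendritic cells. Those dendritic cell ratios rest on few cells. *Cxcl10* had counts in 13.3% of positive and 6.67% of zero dendritic cells, and *Cxcl2* in 8.89% and 2.96%. Of the *Cxcl10* counts of positive dendritic cells 38.7% were in 1 cell, and of their *Sdc4* counts 42.6%. The *Sdc4* ratio of 3.57 in Ly6C hi monocytes was 0.956 within clusters.

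In the CDA-HFD-fed Cre mouse 6 of 6 of these genes that could be measured had a ratio above 1 in Ly6C hi monocytes, 5 of 7 in macrophages and 8 of 8 in dendritic cells, as did 49.8%, 48.0% and 46.8% of all genes, and 4, 2 and 8 of them were past 1.5-fold. There *Ccl4* had ratios of 3.52, 1.05 and 2.87 and *Il1b* of 1.83, 1.28 and 1.78. *Sdc4* and *Nlrp3* were not higher in the macrophages of that mouse, at 0.952 and 0.463. The 10 genes with the lowest median ratio were *Psip1* (0.420), *H1f3* (0.436), *Abcd2* (0.485), *Acat1* (0.505), *Mrpl16* (0.513), *Rasgrp2* (0.527), *Tnfsf13os* (0.544), *Hint3* (0.568), *Mcm2* (0.574) and *Zfp217* (0.584). *Rasgrp2*, which encodes an exchange factor of the GTPase RAP1, was at 59.5 CPM in *Egr2*-positive and 108 CPM in zero monocytes and at 16.6 and 34.2 CPM in macrophages. The others were at most 56.7 CPM in either set of any class of the control mouse, and in the Cre mouse the lowest genes that could be measured had a ratio below 1 in 2 of 2 cases in monocytes and 4 of 5 in dendritic cells, as did 50.2% and 53.2% of all genes, with 1 past 1.5-fold in each class, and none could be measured in macrophages.

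Markers of lipid-associated macrophages of the liver (hLAMs), as the study names them, were read next. The list held 8 genes, of which *Cd63* and *Trem2* also defined the macrophage class. Of the measured genes 2 of 7 were higher in positive Ly6C hi monocytes, 2 of 8 in macrophages and 0 of 4 in dendritic cells, with median log2 ratios of 0.41, 0.21 and -0.11. Among all genes the higher shares were 5.84%, 2.39% and 5.63%, and the medians -0.02, -0.04 and -0.03. In macrophages *Spp1* was at 909 CPM in *Egr2*-positive and 551 CPM in zero cells, a ratio of 1.65 (1.59 to 1.71), and *Clec4e* at 147 and 66.8 CPM, a ratio of 2.20 (2.00 to 2.43). *Spp1*, which encodes osteopontin, took 20% of its positive counts from 1 cell and had 1.42 with the highest cell of each set left out. Within clusters *Spp1* had 1.66 and *Clec4e* 2.03 in macrophages, while in monocytes they went from 1.33 to 0.253 and from 1.36 to 0.905. *Trem2* did not go with *Egr2*, at 995 and 1049 CPM, a ratio of 0.949 (0.922 to 0.977). In monocytes *Fabp5* and *Cd9* were higher, by 2.26 (1.88 to 2.72) and 2.05 (1.67 to 2.53), and by 1.5 and 1.30 within clusters, and of the *Cd63* counts of positive monocytes 41.6% were in 1 cell. In the Cre mouse 4 of 6, 3 of 8 and 0 of 2 were higher, beside 7.76%, 7.22% and 6.79% of all genes there. The medians of the list were 0.69, 0.53 and -0.06.

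Markers of monocyte-derived Kupffer cells (moKCs), of which *Clec4f* also defined the resident Kupffer class, were measured in macrophages alone. There 2.39% of all genes were higher, with a median log2 ratio of -0.04. Of these 4 markers 1 was higher, with a median of 0.26. *Clec4f* was the higher one, by 2.12 (1.81 to 2.48), but it had counts in 6 cells of each set and 46.5% of its positive counts were in 1 cell. *Il18bp* was lower, at 91.2 and 125 CPM, a ratio of 0.730 (0.666 to 0.8), and *Cd207* went from 1.17 to 0.914 within clusters. In the Cre mouse all 4 were lower in *Egr2*-positive macrophages, as were 8.63% of all genes. The median log2 of the list was -1.45 and its summed level 283 against 854 CPM. In that mouse 19.7% of the positive and 53.0% of the zero macrophages were in cluster 3, and within clusters 3 of the 4 were lower (*Cd207* 0.235, *Il18bp* 0.490 and *Cd5l* 0.625), while *Clec4f*, with a count in 1 positive cell, was higher. *Itgax*, which the study names as an EGR2 target, was at 170 and 148 CPM in positive and zero macrophages of the control mouse, a ratio of 1.15 (1.06 to 1.24), and at 227 and 290 CPM in dendritic cells, a ratio of 0.784 (0.701 to 0.877). In the Cre macrophages its log2 ratio was 2.12. *Siglecf*, the other target, was under 100 counts, and SiglecF+ cells had been sorted out.

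*Egr2* is a gene of alternative activation, and 15 genes of that response were read, of which *Chil3*, *Cd209a*, *Mgl2*, *Clec10a* and *Socs2* also defined classes. Past the fold were 0 of 5 in Ly6C hi monocytes, and 4 higher and 1 lower of 11 in dendritic cells, with median log2 ratios of 0.16 in both classes. Over all genes 5.84% were higher and 6.32% lower in the monocytes, and 5.63% and 4.99% in the dendritic cells. The lower gene, *Chil3*, went from 0.419 to 2.28 without the highest cell of each set. The macrophage counts and median of this list are not given, and the list is not described for that class. *Retnla* in dendritic cells had 2324 counts in positive cells and none in zero cells, but 81.6% of them were in 1 of 2 cells. *Ccl17* had 618 and 157 counts in 10 and 11 dendritic cells, with 39.3% of the positive counts in 1 cell. *Mrc1* was higher in positive dendritic cells, by 1.83 (1.40 to 2.41), and by 2.31 within clusters. In the Cre mouse 2 of 5 were higher in monocytes, and 2 of 8 higher and 1 lower in dendritic cells. The shares over all genes there were 7.76% higher in monocytes, and 6.79% higher and 7.72% lower in dendritic cells.

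Genes that EGR2 controls in T and B cells were at most 3 of 7 past the fold, in macrophages, with 0 of 3 in Ly6C hi monocytes and 1 of 3 in dendritic cells. The median log2 ratios were 0.20 in monocytes, 0.36 in macrophages and 0.01 in dendritic cells. Over all genes 5.84%, 2.39% and 5.63% were higher in that order. The 3 macrophage genes were those of cytokine signalling inhibitors, *Cish* with 2.57, *Socs1* with 1.95 and *Socs3* with 1.75, and *Socs3* was the gene of the dendritic cells with 1.70. Within clusters these 4 ratios were 1.78, 1.82, 1.31 and 1.74. Of this list 1 of 3 was higher and 1 lower in Cre monocytes, 0 of 3 were past the fold in macrophages and 1 of 2 was higher in dendritic cells, with medians of 0.23, 0.04 and 0.30. Among all genes of that mouse 7.76% were higher and 5.73% lower in monocytes, and 6.79% higher in dendritic cells. *Lyz2* differed little with *Egr2* in the control mouse, with ratios of 0.996 (0.983 to 1.01), 0.971 (0.963 to 0.979) and 1.11 (1.05 to 1.16). Of 8 lymphocyte genes 7 also defined the T or NK cell and B cell classes, and their summed level was lower in positive cells, at 6.92 and 15.8 CPM in monocytes, 28.1 and 35.5 CPM in macrophages and 9.27 and 11.3 CPM in dendritic cells. For the Cre mouse the sums were 8.57 and 1.90 CPM in monocytes, the other way, and 24.2 and 35.3 CPM and 5.37 and 9.53 CPM in macrophages and dendritic cells. The 6 cell cycle genes were summed to 6.46 and 6.49 CPM in monocytes, to 32.1 and 83.8 CPM in macrophages, where 5 of 5 measured were lower, and to 323 and 138 CPM in dendritic cells, where 5 of 5 were higher. Of all genes 4.04% were lower in macrophages and 5.63% higher in dendritic cells. Within clusters the macrophage ratios of *Birc5* and *Ccnb2* were 2.39 and 1.25 in place of 0.446 and 0.567. In the Cre dendritic cells 3 of 4 measured cell cycle genes were lower, beside 7.72% of all genes. The directions of the control mouse thus did not hold.

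The promoters of the members were read for the letters that EGR factors bind and for those of serum response elements, through which growth factor signals act on EGR genes. This was done because *Egr1* was higher in *Egr2*-positive cells of each class compared. In dendritic cells *Egr3* and 14 of 20 immediate early genes were higher too. The windows are 300 bases, 250 before and 50 after a transcript start, from RefSeq on GRCm38.p6. Both strands were searched for GCGTGGGCG and GCGGGGGCG, which 1139 of 32851 windows of this length hold (3.47%), and for 2 forms of the serum response element, which 46 windows hold (0.140%). Of the 5 windows of *Egr2*, 3 that overlap hold the same element, in the form shown in capitals, and none holds an EGR match, and 1 of the 3 is shown (chr10:67537619-67537918, forward strand). The *Nab1* window (chr1:52500399-52500698, reverse strand) holds 3 EGR matches and no serum response element match, and the *Nab2* window (chr10:127666654-127666953, reverse strand) holds neither. Capitals mark the matches, which are a description of letters and not of binding.
*Egr2*: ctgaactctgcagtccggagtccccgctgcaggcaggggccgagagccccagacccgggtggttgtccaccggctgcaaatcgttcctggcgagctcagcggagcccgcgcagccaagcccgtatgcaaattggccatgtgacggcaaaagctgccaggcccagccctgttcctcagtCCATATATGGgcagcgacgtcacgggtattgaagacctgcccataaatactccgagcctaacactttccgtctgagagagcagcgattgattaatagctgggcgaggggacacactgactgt
*Nab1*: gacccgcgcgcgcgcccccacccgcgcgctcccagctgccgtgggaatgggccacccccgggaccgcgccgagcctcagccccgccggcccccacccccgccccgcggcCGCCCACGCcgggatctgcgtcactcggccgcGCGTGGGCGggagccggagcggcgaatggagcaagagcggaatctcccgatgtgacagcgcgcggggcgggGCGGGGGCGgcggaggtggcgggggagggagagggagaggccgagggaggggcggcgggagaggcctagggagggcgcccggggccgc
*Nab2*: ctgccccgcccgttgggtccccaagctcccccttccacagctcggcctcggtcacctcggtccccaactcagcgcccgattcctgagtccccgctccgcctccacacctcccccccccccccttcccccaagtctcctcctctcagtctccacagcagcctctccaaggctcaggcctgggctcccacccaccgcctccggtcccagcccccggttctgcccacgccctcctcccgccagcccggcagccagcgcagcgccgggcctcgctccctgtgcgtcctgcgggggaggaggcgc

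With a single mouse in each group, a difference between genotypes or diets cannot be told from a difference between animals. The counts of *Egr2* were few in the monocytes, neutrophils and macrophages of the ND-fed mice and in most of the smaller classes, and its ratios there rest on small numbers of cells. Gated classes held different clusters on the diets, and a class ratio of *Egr2*, *Nab1* or *Nab2* joins a change within clusters with a change in their mixture. Cells without an *Egr2* count include cells that express it below the depth reached, so the matched ratios compare cells that differ in *Egr2* by less than their names say. RNA levels alone were measured, and EGR2, NAB1 and NAB2 protein was not.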

How the data were processed

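Single-cell RNA of sorted liver cells of 4 mice was measured on the BD Rhapsody system with TAS-Seq amplification. The authors mapped reads to GRCm38 and assigned barcodes to hashtags, and the submitters' processing notes name R 4.2.1 and Seurat 4.1.1. The deposited value is a count per gene and barcode, a whole number without normalization, and the sources used do not state if molecules or reads were counted. In 34 genes, none of them a member, the lowest value above 0 was at least 5. The members and gene lists were chosen with earlier results of these data known. The 1392 barcodes named doublets by the authors and the 7 hashtag columns without a mouse were left aside. Doublets within a mouse were kept, and as an alternative the 724 cells with the highest Scrublet scores were left out. Cells with at most 25% mitochondrial counts were kept (15384 of 15394). The gate scored each class by the mean standardized log value of its markers. Clusters came from Seurat 5.3.0, a later version than the authors', with 2856 variable genes (fewer than the authors report), 57 principal components and resolution 1. Each cluster was given the class whose markers were most often raised (counted in 20% or more of its cells, with CPM no less than 2 times the level outside it) if at least 3 were raised and at least 2 were among its 10 leading genes or no fewer were raised than not. Clusters led by cell cycle genes, or of few counts without a leading marker, stayed unnamed. This rule for names was set after the data had been seen.

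CPM carry exact Poisson intervals, shares Clopper-Pearson intervals, and ratios the exact binomial interval of the split of summed counts. A count of 0 was read as a limit of 3 counts, and a ratio against it leaves out the counting error of the other mouse. Ratios needed 30 cells in each mouse. Genes named are the members, the genes of fixed lists, the 5 genes most like each member across classes among those with a mean of at least 10 CPM, and the 10 highest and 10 lowest median ratios of the matched comparison among genes past 1.5-fold in at least 2 classes and in 1 direction in all classes with at least 100 counts. The matched ratios that ranked and counted genes had 1 CPM added to both sets. Alternatives were cluster classes, a stricter gate with a lead of 0.75 SD, mitochondrial counts of at most 10%, the mean over cells, TMM factors of edgeR 4.0.16, cells with at least 90% own hashtag, no matching, matching on detected genes, another matching order, a higher *Egr2* threshold, 500 counts and a pseudocount of 10 CPM, and, chosen after seeing the data, matching within clusters and leaving out the cell with the most counts of a gene in each set or mouse. Analyses ran in Python 3.11.15 with numpy 2.4.6, scipy 1.17.1, pandas 2.3.3, scanpy 1.11.5 and matplotlib 3.10.9, and in R 4.3.3.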

Additional observations from a re-analysis of the deposited data

How the results depend on the processing

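Of 282 genotype ratios under the alternatives, 265 lay within the interval of the reported ratio, as did 210 of 223 diet ratios, and 267 and 203 lay on the same side of 1 as it. Many of these intervals are wide. Of 54 numbers of genes, 38 were within 1.5 times the reported number, but the genes changed more than their number. With cluster classes 27.3%, 27.2% and 41.7% of the higher genes and 22.9%, 15.3% and 32.9% of the lower genes of monocytes, macrophages and dendritic cells were found again, and with a higher *Egr2* threshold between 11% and 35.2%. All 37 shares of cells with an *Egr2* count were lower in thinned cells, 24 of them outside their interval. In further cases no ratio could be had, 24 for under 30 cells and 7 for too few counts. Matching within clusters and leaving out the highest cell were chosen after seeing the data, and of 416 ratios of *Egr2*-positive to zero cells under them 325 lay within the interval, 80 outside it and 11 on the other side of 1. In each case below the reported value comes first, and the cause was not tested. With cluster classes, the *Egr2* genotype ratio on CDA-HFD went from 0.402 to 0.320 in Ly6C hi monocytes and from 0.174 to 0.12 in macrophages, the *Egr2* ND genotype ratio in dendritic cells from 1.06 to 1.51, and the *Egr2* diet ratio from 0.887 to 0.378 in control macrophages and from 1.23 to 0.873 in Cre dendritic cells. There the CDA-HFD genotype ratio of *Nab1* went from 0.95 to 1.18 in Ly6C hi monocytes and from 0.629 to 0.766 in dendritic cells, its diet ratio from 0.572 to 0.812 in control Ly6C lo monocytes, and the CDA-HFD genotype ratio of *Nab2* from 0.959 to 0.755 in Ly6C hi monocytes and from 0.905 to 0.786 in macrophages. With the stricter gate, the CDA-HFD genotype ratios were 0.0729 for *Egr2* in macrophages and, in Ly6C hi monocytes, 1.17 for *Nab1* and 0.781 for *Nab2*, and the control diet ratios in these monocytes went from 0.927 to 0.700 for *Nab1* and from 1.22 to 2.02 for *Nab2*. As a mean over cells, the *Egr2* diet ratio of control macrophages was 0.546, the *Nab1* CDA-HFD genotype ratio in macrophages went from 1.25 to 1.06 and the *Nab2* ND one from 1.07 to 1.76. With at least 90% own hashtag, the ND genotype ratio in Ly6C hi monocytes went from 1.08 to 0.164 for *Egr2* and from 0.991 to 1.71 for *Nab2*, and that of *Nab1* in Ly6C lo monocytes from 0.765 to 0.507. The Cre diet ratio went from 1.95 to 8.35 for *Egr2* in Ly6C hi monocytes and from 0.605 to 0.947 for *Nab1* in Ly6C lo monocytes, and the control one of *Nab2* in Ly6C hi monocytes from 1.22 to 1.82. The numbers of genes higher and lower in *Egr2*-positive cells, 271 and 293 in Ly6C hi monocytes, 213 and 360 in macrophages and 278 and 246 in dendritic cells, were 42 and 12, 63 and 26, and 44 and 6 at 500 counts, where fewer genes were measured, and 176 and 163, 67 and 32, and 168 and 114 with 10 CPM added. Without matching, lower genes were 746 in Ly6C hi monocytes and 478 in dendritic cells, with a higher *Egr2* threshold 190 in Ly6C hi monocytes, and within clusters 235 in macrophages. Within clusters these ratios crossed 1: in Ly6C hi monocytes *Sdc4* (3.57 to 0.956), *Jun* (0.931 to 1.12), *Spp1* (1.33 to 0.253) and *Clec4e* (1.36 to 0.905), and in macrophages *Fabp5* (1.08 to 0.930), *F10* (1.13 to 0.938), *Cd207* (1.17 to 0.914), *Cd79b* (0.747 to 1.05), *Birc5* (0.446 to 2.39) and *Ccnb2* (0.567 to 1.25). Without the highest cell of each set, *Chil3* in dendritic cells went from 0.419 to 2.28. Without the highest cell of each mouse, also added after seeing the data, the *Egr2* diet ratio of control neutrophils went from 1.88 to 10.7, the *Egr2* ratios in Ly6C hi monocytes from 1.08 to 0.298 for genotype on ND and from 1.95 to 10.7 for diet in Cre mice, those in dendritic cells from 1.06 to 1.54 for genotype on ND and from 1.69 to 3.13 for diet in control mice, and the *Nab1* diet ratio of Cre macrophages from 1.07 to 2.14.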
